A study of Mus musculus with 9 samples.

Results

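Cytosolic ribosomal protein genes encode the protein subunits of the ribosome that translates nuclear messages. They were taken by symbol as Rpl or Rps followed by a number, with an optional a, x or l, plus Rplp0, Rplp1, Rplp2, Rpsa and Fau. Pseudogenes marked -ps, the Rpl37rt retrogene, the Rps6k kinases and the mitochondrial Mrpl and Mrps genes were left out. This gave 81 genes of the 18220 in the table, 48 of the large 60S subunit and 33 of the small 40S subunit. Rps3a1 and Rack1, which also encode ribosomal proteins, are not matched by these symbols and are given only where their values bear on a result. One member, Rps4l, is annotated as a transcribed pseudogene in RefSeq and was kept because its symbol matches. RNA-seq had been run on the intestinal stem cell niche, the crypt base that holds the stem cells and their neighbours, cut from small intestine by laser microdissection. The 3 groups, each of 3 wild type biological replicates, were uninflamed AKR mice at 25 weeks of age, uninflamed SAMP/YitFc mice (here SAMP) at 5 weeks of age, and SAMP mice at 25 weeks of age that had severe ileitis resembling Crohn's disease. The SAMP groups differ from each other in both age and disease, and the AKR group differs from both in strain, so strain cannot be told apart from disease in one comparison, nor age from disease in another. A crypt culture note also stands in the labels, and its relation to the captured tissue is not given in the sources used here.

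Most ribosomal proteins are needed in equal numbers, and their genes are among the most highly transcribed of any dividing cell. In mammals most of their messages begin with a C followed by a run of pyrimidines, the terminal oligopyrimidine or TOP tract, through which mTORC1 and the LARP1 protein control their translation and stability. The intestinal crypt renews its epithelium without pause, and its stem and progenitor cells make ribosomes at a high rate. RNA levels, as measured here, show neither translation nor the number of ribosomes.

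The tract can be read at the annotated starts of some members but not of most. RefSeq start windows of the GRCm38.p6 assembly were matched to 60 of the 81 genes, with 71 windows in all. A C followed by at least 4 pyrimidines (C or T) lay exactly at the annotated start base in 15 of the 71 windows, or 21.1%, against 2.3% of the windows of all tested genes and 0 of 75 windows of mitochondrial ribosomal protein genes. Within 15 bases on either side of the start, the share was 60.6% against 37.9%, and 44.0% for mitochondrial ribosomal protein genes. The windows below, from 20 bases before the start base to 9 after it, show tracts at or across the start in Rpl38, Rps6, Rps10 and Rplp2, and none in Rpl37, the member that results turn on most. Capitals mark the tract, and the start base is the 21st letter.
Rpl38 (chr11:114668560-114668589, plus strand): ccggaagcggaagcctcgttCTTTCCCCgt
Rps6 (chr4:86857358-86857387, minus strand): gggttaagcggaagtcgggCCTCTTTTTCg
Rps10 (chr17:27635235-27635264, minus strand): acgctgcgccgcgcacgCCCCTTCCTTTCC
Rplp2 (chr7:141447631-141447660, plus strand): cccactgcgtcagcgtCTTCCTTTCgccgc
Rpl37 (chr15:5116593-5116622, plus strand): gaagtagtttcctgggcggaagcttatcca
In the whole windows of 300 bases (250 before the start), searched on both strands, CCGGAAGT was found in 16.9% of the members' windows and in 8.2% of those of all tested genes, and in 12 of the 75 windows of mitochondrial ribosomal protein genes. TATAAA was found in 9.9%, 7.8% and 6.7% in the same order. A match is a description of the letters only.

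The depth, which the steps of the lowest values allow to be estimated, ran from 7040000 to 10260000 reads per library. The values are FPKM, a read measure scaled to transcript length and library depth, so a gene's value is relative to everything else in its library, and the 10 most abundant rows took 32.3 to 54.4% of the total. Among cell type markers, villus enterocyte markers (7 of 7 tested) summed to 739, 16417 and 412 FPKM in AKR replicates 1 to 3, so that the high value came from replicate 2 alone. Their sums were 194 to 1495 in SAMP mice at 5 weeks and 94.2 to 267 in SAMP mice at 25 weeks, with Apoa4 at 0 in all 3 libraries at 5 weeks. The 5 goblet markers summed to 4013 to 4752, 3137 to 6129 and 12463 to 17444 FPKM in the same order, the 5 Paneth markers to 24801 to 58631, 31414 to 41057 and 40820 to 61666, and the 5 stem cell markers to 298 to 688, 997 to 1244 and 673 to 849. Of the 5 goblet markers, limma called 3 higher (Clca1, Muc2 and Spink4) and 2 lower (Fcgbp and Tff3) in SAMP at 25 weeks than in AKR. Of the 7 villus enterocyte markers, it called only Fabp1 in that comparison, as higher, while 6 of 7 had a negative log2 fold change. Fabp1 was also the only one called, again higher, in SAMP at 25 weeks against SAMP at 5 weeks, where 3 of 7 were negative. Paneth and stem cell markers were thus present in every library. The part of these cell types in the results on ribosomal protein genes was not tested, and in bulk tissue fewer cells of a type cannot be told apart from less RNA per cell.

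The ribosomal protein genes took 7.27% ± 0.64 (SD, n = 3) of all FPKM in AKR mice, 8.39% ± 1.20 in SAMP mice at 5 weeks and 5.15% ± 1.70 in SAMP mice at 25 weeks. By library they made up 7.77, 7.50 and 6.55% of all FPKM in the 3 AKR libraries (replicates 1 to 3, here and below). The share was 9.76, 7.48 and 7.95% in SAMP mice at 5 weeks and 6.74, 3.36 and 5.34% in SAMP mice at 25 weeks. The lowest 2 of the 9 values were SAMP at 25 weeks, and replicate 1 of that group lay within the AKR range. The median member stood at 568, 548 and 501 FPKM in AKR, 792, 580 and 583 in SAMP at 5 weeks, and 556, 287 and 411 in SAMP at 25 weeks. The gap between the highest and the lowest library of either SAMP group was about as wide as that between the group means. Replicate 1 of SAMP at 5 weeks held the highest value of 72 of the 80 tested members, and replicate 2 of SAMP at 25 weeks the lowest of 76. All FPKM here includes ribosomal RNA rows. The 28S ribosomal RNA row, Rn28s1, had 19151 FPKM in replicate 1 of SAMP at 5 weeks and 17259 in replicate 1 of SAMP at 25 weeks. In the other libraries it had 26002 to 33244. Its bearing on the members' values was not tested. The ratio of summed 60S to summed 40S FPKM, in contrast, was 1.52 ± 0.02 (SD, n = 3) in AKR, 1.49 ± 0.04 in SAMP at 5 weeks and 1.51 ± 0.01 in SAMP at 25 weeks. The subunits moved together from library to library.

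**Figure D1:**
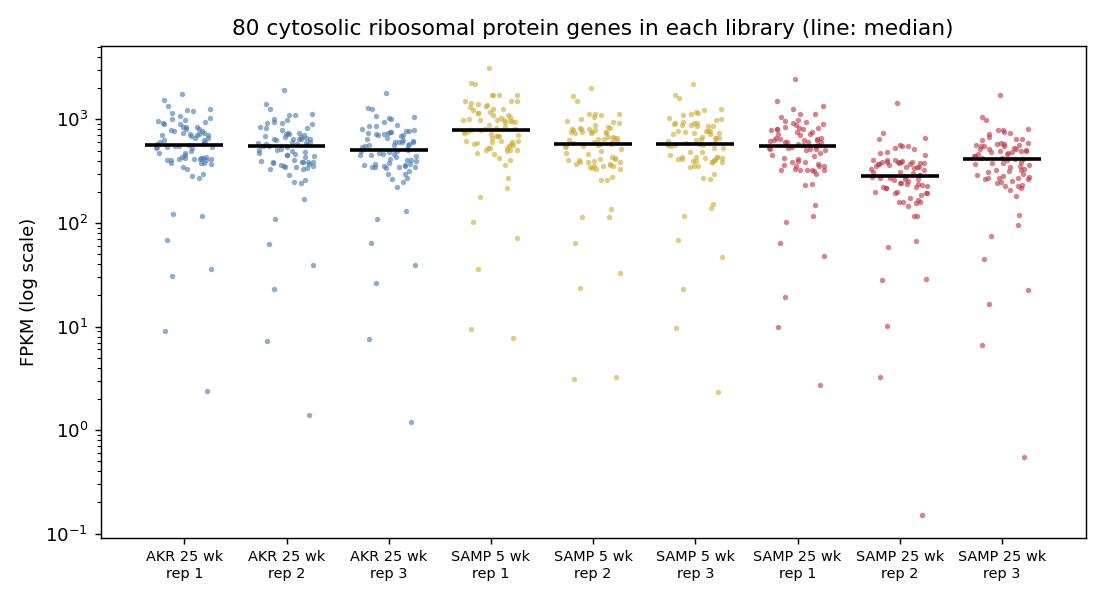
FPKM of the 80 tested cytosolic ribosomal protein genes (points, log scale) in each of the 9 libraries, with the library median as a black line. The median stands between 501 and 568 in AKR, peaks at 792 in replicate 1 of SAMP at 5 weeks and is lowest, at 287, in replicate 2 of SAMP at 25 weeks.

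Levels differed widely between members. Of the 81 genes, 80 had a mean of at least 1 FPKM and entered the tests, and 75 had a mean above 100. The median of the 80 means was 552 FPKM, against 7.40 for all 11775 genes tested. Rpl41, which encodes a very short peptide of the 60S subunit, was highest with a mean of 2039 FPKM over the 9 libraries, followed by Rpl10a (1451) and Rps27 (1328). At the other end stood Rps4l (2.42), Rpl34 (7.31) and Rpl32l (23.2). Rpl39l, a paralog of Rpl39 that in mice is known from the male germ line, was listed at 0 in 8 libraries and at 0.65 in replicate 3 of SAMP at 5 weeks, and was not tested.

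How reads were divided between near-identical copies is not given in the sources used here. In the GENCODE vM21 transcripts, 78 of 80 members shared at least 1 window of 50 bases, on either strand, with another annotated gene. In 44 members over 50% of these windows were shared, and the median over all 80 members was 52%. Some of these partners are overlapping neighbours and not copies. Rpl34 itself had 9, 7.29 and 7.51 FPKM in AKR, whereas Rpl34-ps1 had 312, 345 and 323. In SAMP mice Rpl34 had 9.51, 3.08 and 9.59 FPKM at 5 weeks and 9.96, 3.25 and 6.61 at 25 weeks, and the pseudogene 516, 307 and 341, then 318, 172 and 247. The sum of both was 321 to 352 in AKR, 310 to 525 in SAMP at 5 weeks and 175 to 328 in SAMP at 25 weeks, within the range of other members.

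The comparison of diseased SAMP mice at 25 weeks with SAMP mice at 5 weeks bears on what accompanies ileitis and age within the strain. Every one of the 80 members had a lower mean on the log2 scale at 25 weeks, with a median log2 fold change of -0.72 against -0.12 over all 11775 genes. The quartiles of the members lay at -0.80 and -0.60, and the 60S and 40S medians were -0.71 and -0.72. None passed limma's moderated test at an adjusted p of 0.05, adjusted over all genes, where 1.52% of all genes did. At an unadjusted p of 0.05, 57 of 80 were lower against 11.0% of all genes, and in 45 of 80 the 3 libraries at 25 weeks lay below all 3 at 5 weeks, against 12.3% of all genes. The members share the same libraries, so these counts are not independent of each other.

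Rpl31, a 60S protein near the exit of the nascent chain tunnel, came closest to the threshold. It had 985, 749 and 777 FPKM at 5 weeks and 514, 300 and 412 at 25 weeks, so the groups did not overlap. Its log2 fold change was -1.06 ± 0.26 (SE), with an adjusted p of 0.078 in limma's test. Rpl39, a small protein that lines the same tunnel, had 1517, 971 and 1039 FPKM at 5 weeks and 781, 409 and 564 at 25 weeks, again without overlap, for a log2 fold change of -1.03 ± 0.30 and an adjusted p of 0.12. Rps20 and Rps27, both proteins of the 40S subunit, each had a log2 fold change of -0.93, with adjusted p values in limma's test of 0.11 and 0.13. Rps4l had the lowest value of all, -1.40 ± 0.45, at 7.73, 3.27 and 2.31 FPKM against 2.75, 0.15 and 0.55, and these groups overlapped.

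Members with other known roles lay in the same range. Rpl5 and Rpl11, which with 5S rRNA form the particle that binds Mdm2 when ribosome assembly fails, had log2 fold changes of -0.70 ± 0.31 and -0.84 ± 0.32. Rps6, the target of the S6 kinases, had 739, 478 and 561 FPKM at 5 weeks and 522, 278 and 374 at 25 weeks, a log2 fold change of -0.62 ± 0.28. The overlap came from replicate 1 at 25 weeks, which lay above replicate 2 at 5 weeks. The stalk proteins Rplp0, Rplp1 and Rplp2, which recruit elongation factors, had values of -0.62, -0.74 and -0.79, and in each of them the groups were apart. Rps19 and Rps14, known from human Diamond-Blackfan anaemia and 5q- syndrome, had -0.83 and -0.79. Rpl3, at the peptidyl transferase centre, had -0.73, Rpl10, which joins the 60S subunit late, -0.60, Rps3, at the entry of the mRNA channel, -0.72, and Rpl22, a 60S protein that mice can live without, -0.81. The least negative tested members were Rpl34 (-0.12), Rps9 (-0.38), Rpl41 (-0.39), Rps16 (-0.46) and Rps13 (-0.46). Adjusted p values in limma's test for the genes of this paragraph lay between 0.16 and 0.91.

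The size of this difference rested on single libraries. Without replicate 1 of SAMP at 25 weeks the median was -0.94 and 12 members passed the threshold, all lower, against 3.24% of all genes, among them Rpl7, Rpl15, Rpl21, Rpl22, Rpl27a, Rpl31, Rpl39, Rps4l, Rps15a, Rps18 and Rps20. Without replicate 2 of that group the median was -0.48, with 17 members lower at an unadjusted p of 0.05, against 5.46% of all genes. Without replicate 1 of SAMP at 5 weeks it was -0.54, with 12 members lower, against 5.77%. Weighting the libraries by their agreement called 56 members lower, against 12.8% of all genes. In that fit replicate 3 of SAMP at 25 weeks had a weight of 6.06 and the other 2 of its group 0.37 and 0.44. Quantile normalisation reduced the median to -0.20.

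Diseased SAMP mice were then set against AKR mice of the same age, where strain and disease differ. Rpl37 was the one member called, and it was lower in SAMP, against 1.35% of all genes called lower and 2.94% called in either direction. Its values follow with those of its retrogene. Of the 80 members, 78 had a negative log2 fold change, with a median of -0.46 against -0.15 over all genes, and quartiles of -0.53 and -0.37. Only 3 were lower at an unadjusted p of 0.05, where 10.6% of all genes were. The 3 SAMP libraries lay below all 3 AKR libraries in 25 members, against 12.6% of all genes.

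Beside Rpl37, the lowest values were those of Rpl32l, Rpl31, Rpl39 and Rpl28. Rpl32l had 30.8, 22.8 and 26.6 FPKM in AKR and 19.2, 10.2 and 16.6 in SAMP at 25 weeks, without overlap, and its log2 fold change was -0.80 ± 0.26 with an adjusted p of 0.15 in limma's test. For Rpl31 (702, 650 and 601 in AKR) it was -0.70 ± 0.26 with an adjusted p of 0.22 in the same test. Rpl28, a 60S protein, stood at 1139, 1008 and 1079 in AKR and 971, 484 and 720 in SAMP at 25 weeks, a log2 fold change of -0.62 ± 0.29. The highest values were those of Rps14 (0.02 ± 0.29), Rpl41 (0.02 ± 0.31), Rps27l (-0.10 ± 0.28), Rplp0 (-0.14 ± 0.26) and Rpsa (-0.25 ± 0.28). Rpsa is also known as the laminin receptor precursor. Fau, whose product is a ubiquitin-like protein fused to a 40S protein, had -0.53, Rpl13a, known also for control of translation in macrophages, -0.32, and Rpl38, needed in mice for translation of Hox messages, -0.37.

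Here too the size moved with single libraries, in both directions. Without replicate 2 of SAMP at 25 weeks the median was -0.21, and without replicate 1 it was -0.69, with 63 members lower at an unadjusted p of 0.05, against 18.9% of all genes. Library weights called 30 members lower, against 16.2% of all genes. Under quantile normalisation the median was -0.11, and libraries set to equal medians, which moved the median of all genes from -0.15 to -0.02, gave -0.30.

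The inflammation-free SAMP mice at 5 weeks against AKR mice differed in strain and age. No member passed the adjusted threshold of limma's test, where 0.552% of all genes did, and 2 had an unadjusted p under 0.05, against 7.47% of all genes. The log2 fold change was positive in 77 of 80, with a median of 0.26 against -0.03 over all genes. In 20 members all 3 SAMP libraries lay above all 3 AKR libraries, against 6.11% of all genes, and in 1, Rpl37, they lay below, against 8.33%. Among the highest were Rps4l (0.92 ± 0.45), Rps14 (0.80 ± 0.29), Rplp0 (0.48 ± 0.26) and Rps27 (0.43 ± 0.27). The lowest were Rpl37, Rpl34 (-0.21), Fau (-0.01), Rpl28 (0.01) and Rpl32l (0.02). Without replicate 1 of SAMP at 5 weeks the median fell to 0.08, and it was 0.12 after quantile normalisation. Each group enters 2 of the 3 comparisons, so the 3 sets of values are not independent.

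**Figure D2:**
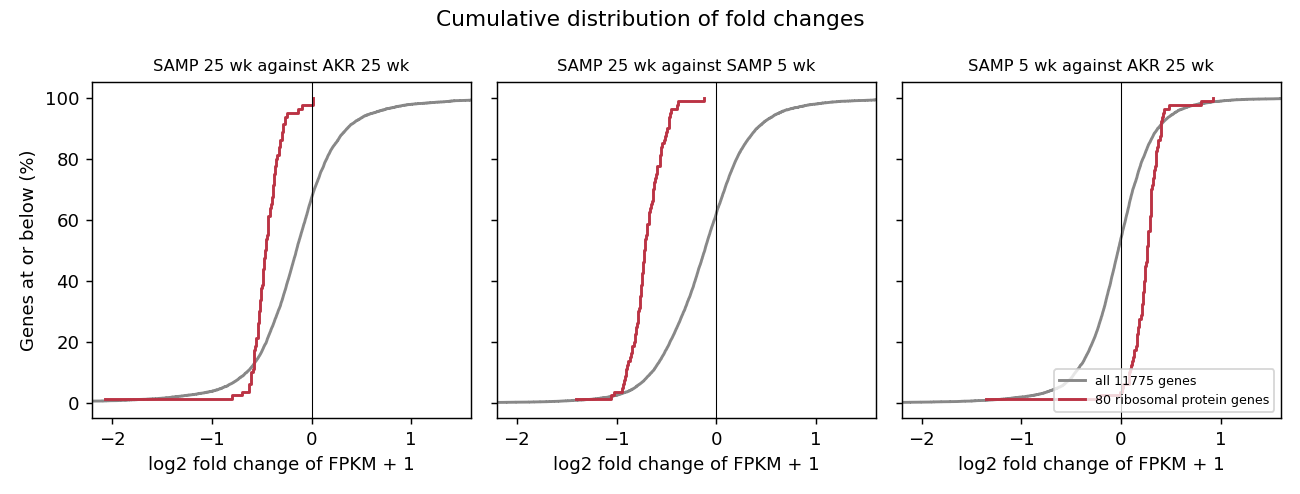
Cumulative share of genes (%) at or below each log2 fold change of FPKM + 1, for all 11775 genes tested (grey) and the 80 cytosolic ribosomal protein genes (red), in each comparison. The red curve is steep and lies left of the grey one for most genes in both panels with SAMP at 25 weeks (medians -0.46 and -0.72) and right of it in the panel of SAMP at 5 weeks against AKR (0.26), with Rpl37 as the isolated step at the far left of the outer panels.

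Rpl37 departed from the other members by strain. It encodes a 60S protein with a zinc-binding fold. It had 416, 392 and 355 FPKM in AKR, 216, 114 and 140 in SAMP at 5 weeks and 116, 67.4 and 96.3 in SAMP at 25 weeks. All 6 SAMP libraries lay below all 3 AKR libraries, and replicate 2 at 5 weeks lay just below replicate 1 at 25 weeks. The log2 fold change was -2.08 ± 0.28 for SAMP at 25 weeks against AKR, with an adjusted p of 0.0016 in limma's test. It was -1.35 ± 0.28 for SAMP at 5 weeks against AKR (limma, adjusted p of 0.065) and -0.73 ± 0.28 between the SAMP ages (limma, adjusted p of 0.24). With every library scaled to its median ribosomal protein gene, a setting chosen with these data in view, Rpl37 was called in both strain comparisons, at -1.66 ± 0.16 and -1.61 ± 0.16. The limma adjusted p values were 7.7e-05 and 0.00024, and 0.807% and 0.361% of all genes were called lower in these fits. Between the SAMP ages the scaled value was -0.05.

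The retrogene Rpl37rt showed the opposite pattern. A retrogene is a copy made by reverse transcription of a spliced message, and this one lies on chromosome 5 (GRCm38 chr5:115102922-115110268), while Rpl37 is on chromosome 15 (chr15:5116613-5119140). Rpl37rt had 17.1, 17.8 and 18.5 FPKM in AKR, 683, 392 and 443 in SAMP at 5 weeks and 341, 205 and 295 in SAMP at 25 weeks. The lowest SAMP library was far above the highest AKR library. Its log2 fold change was 4.71 at 5 weeks and 3.87 at 25 weeks against AKR, and it passed limma's threshold in both comparisons under all 24 alternatives.

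The coding sequences of the pair, read from the GENCODE vM21 transcripts, are 294 bases long and differ at 1 base, G249A, counted from 1 at the A of the start codon, with the base of Rpl37 first. The change leaves a threonine codon, ACG in Rpl37 and ACA in Rpl37rt, at codon 83. With its flanks the match runs over 344 bases, in transcripts of 835 bases for Rpl37 and 682 for Rpl37rt. Of the 50-base windows of the Rpl37 transcript, 31.3% were shared with another annotated gene. How reads from the matching bases were counted is not given. These are reference sequences, and whether AKR or SAMP mice carry variants in either copy was not examined. The stretch from base 235 to base 264 of the coding sequence holds the difference, shown in capitals.
Rpl37: cgtgagggaacaacGccgaaacccaagagg
Rpl37rt: cgtgagggaacaacAccgaaacccaagagg
Rpl37rt made up 4.42% ± 0.50 (SD, n = 3) of the summed FPKM of the pair in AKR, 76.5% ± 0.89 in SAMP at 5 weeks and 75.1% ± 0.36 in SAMP at 25 weeks. The share varied far less within a strain than between strains, and it was alike in the most and the least abundant SAMP libraries. Summed, the pair had 433, 409 and 373 FPKM in AKR, 899, 506 and 582 in SAMP at 5 weeks and 457, 272 and 391 in SAMP at 25 weeks. The log2 fold changes of the sum were -0.15 ± 0.29 and 0.67 ± 0.29 for SAMP at 25 and 5 weeks against AKR, with limma adjusted p values of 0.84 and 0.62, and -0.81 ± 0.29 between the SAMP ages (limma, adjusted p of 0.20). With near copies summed, likewise chosen with these data in view, no member was called in any comparison by limma, while 3 and 58 were lower at an unadjusted p of 0.05 for SAMP at 25 weeks against AKR and against SAMP at 5 weeks, where 10.6% and 11.1% of all genes were.

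**Figure D3:**
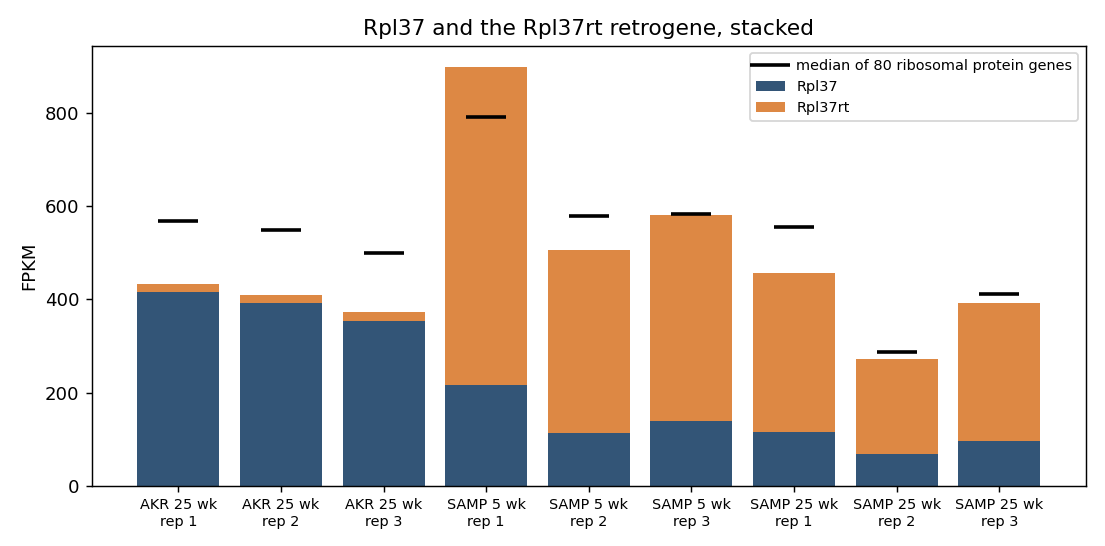
FPKM of Rpl37 (blue) and Rpl37rt (orange), stacked from 0, in each of the 9 libraries, with the median of the 80 tested ribosomal protein genes as a black mark. Rpl37rt is a thin band of 17.1 to 18.5 in AKR and 74.7 to 77.5% of each SAMP bar, while the summed bar stands at 0.745 to 1.14 of the median mark.

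Most other members kept their place relative to the median ribosomal protein gene of their library. With libraries scaled to it, 71 of the 80 members had a log2 fold change within 0.3 of 0 in all 3 comparisons, and the other 9 were Rpl31, Rpl32l, Rpl34, Rpl37, Rpl39, Rpl41, Rps14, Rps27l and Rps4l. On that scale, in log2 units, Rps6 stood at -0.10 ± 0.10 (SD, n = 3) in AKR, -0.14 ± 0.12 in SAMP at 5 weeks and -0.09 ± 0.04 in SAMP at 25 weeks. Rpl3 stood at -0.20, -0.16 and -0.22, and Rpl5 at -0.39, -0.41 and -0.43, in the same order. For each of these genes the group means differed by less than its largest SD within a group. The SD of Rpl3 in SAMP at 5 weeks, 0.02, was smaller than that difference.

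Of these 9, Rps14 was the one beside Rpl37 that divided the strains. It had 537, 551 and 450 FPKM in AKR, 1238, 746 and 770 in SAMP at 5 weeks and 652, 387 and 547 in SAMP at 25 weeks. Relative to the median member it was -0.08 ± 0.08 in AKR, 0.47 ± 0.15 in SAMP at 5 weeks and 0.36 ± 0.11 in SAMP at 25 weeks, so all 6 SAMP libraries lay above all 3 AKR libraries. In the scaled fit the differences of 0.54 ± 0.15 and 0.43 ± 0.15 from AKR did not pass limma's threshold, with adjusted p values of 0.21 and 0.17. Rpl41 stood at 1.75 ± 0.12, 1.89 ± 0.09 and 2.18 ± 0.14 above the median in AKR, SAMP at 5 weeks and SAMP at 25 weeks. Rpl31 was 0.27 ± 0.03 above it in AKR, 0.37 ± 0.05 in SAMP at 5 weeks and -0.01 ± 0.09 in SAMP at 25 weeks, the last group being apart from both others. Rpl39 was ordered alike, at 0.70 ± 0.07, 0.84 ± 0.10 and 0.49 ± 0.03. Neither Rpl41, Rpl31 nor Rpl39 passed the adjusted threshold in the scaled fit.

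Rplp2 and Rps15 were among the members set apart in replicate 1 of SAMP at 25 weeks. Rplp2 had 804, 669 and 710 FPKM in AKR and 860, 837 and 767 in SAMP at 5 weeks, then 324, 514 and 645 in SAMP at 25 weeks. In replicate 1 it stood at -0.78 relative to the library's median member, and in the other 2 at 0.84 and 0.65. Rps15 had 1116, 347 and 560 FPKM in SAMP at 25 weeks, and its replicate 1 was 1.01 above the median where the other 8 libraries stood between 0.28 and 0.62. Less far apart, Rps10 stood at 0.53 in replicate 1 of SAMP at 25 weeks, against -0.08 and 0.03 in replicates 2 and 3. Rpl7a stood at 0.53 against -0.01 and 0.17. That replicate 1 held the highest FPKM of 6 members. The pooled SD within groups of log2(FPKM + 1) was largest for Rps4l (0.69), Rps15 and Rpl34, against a median of 0.34 over the tested members.

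**Figure D4:**
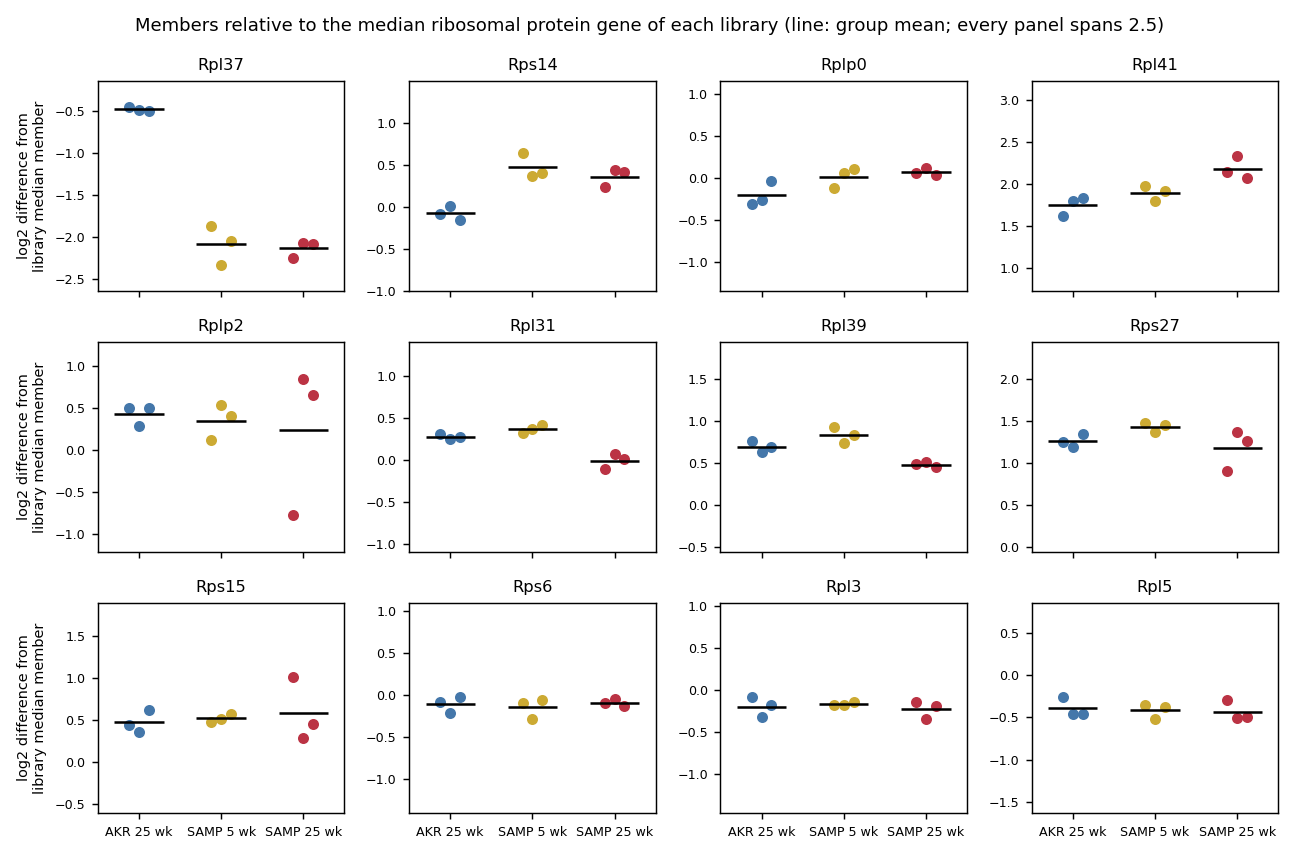
Level of 12 members relative to the median ribosomal protein gene of the same library (log2 difference), with 1 point per library and group means as lines. Every panel spans 2.5 log2 units. Rpl37 drops from -0.48 in AKR to -2.09 and -2.14 in the SAMP groups, Rps14 is higher in both SAMP groups, 1 library sets Rplp2 apart, and Rps6, Rpl3 and Rpl5 stay level.

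Among the paralogs, Rps27l, related to Rps27 and known as a p53 target, had 116, 170 and 130 FPKM in AKR, 270, 136 and 152 in SAMP at 5 weeks and 149, 117 and 120 in SAMP at 25 weeks. Rps27 itself had 1352, 1255 and 1271, then 2204, 1497 and 1600, and 1043, 740 and 990. The parent's groups were apart in all 3 comparisons, and the paralog's overlapped. Rpl32 had 1220, 1107 and 997 FPKM in AKR, and its log2 fold changes were -0.51 for SAMP at 25 weeks against AKR and -0.76 against SAMP at 5 weeks. Of the 4 members on the X chromosome, Rps4x stood at 0.57, 0.62 and 0.57 relative to the median member in AKR, SAMP at 5 weeks and SAMP at 25 weeks, Rpl10 at 1.08, 1.06 and 1.15 and Rpl36a at -0.29, -0.32 and -0.40. Rpl39, also on the X chromosome, stood at 0.70, 0.84 and 0.49, with SAMP at 25 weeks apart from both other groups.

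Members with the tract exactly at the annotated start base had medians close to those of the others. The 15 members with it there had a median log2 fold change of -0.66 for SAMP at 25 weeks against SAMP at 5 weeks, and the 44 other tested members with a start window -0.69. Against AKR the medians were -0.50 and -0.45 at 25 weeks and 0.18 and 0.25 at 5 weeks. The other members are not free of tracts, since 43 of the 71 windows held one within 15 bases of the start. The split thus follows where the start is annotated and cannot show whether TOP messages differed. The members' values followed transcript length only weakly: across 79 members, Spearman's rho of the log2 fold change with length was -0.18, -0.17 and -0.02 in the comparisons of SAMP at 25 weeks with AKR, SAMP at 25 weeks with SAMP at 5 weeks, and SAMP at 5 weeks with AKR, as a description across genes that share libraries. Members are short, with a median of 830 bases against 2949 for all tested genes. The 795 other genes under 1000 bases had median log2 fold changes of -0.31, -0.41 and 0.09 in these comparisons, so short genes as a class leaned the same way as the members.

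Other genes of ribosome production had smaller medians in the same directions. For SAMP at 25 weeks against SAMP at 5 weeks, 23 translation elongation and TOP mRNA factors had a median log2 fold change of -0.49, with 23 of 23 negative. In the same comparison 46 genes of rRNA processing and ribosome assembly had -0.44, 20 of the RNA polymerase I machinery -0.37 and 20 translation initiation factors -0.36. Against AKR the medians were -0.36, -0.30, -0.22 and -0.18 at 25 weeks and 0.13, 0.09, 0.11 and 0.12 at 5 weeks. None of these genes was called in any comparison by limma, and in the 25 week comparison with SAMP at 5 weeks 7, 13, 3 and 3 of them had an unadjusted p under 0.05, where 1948 of all 11775 genes did. Npm1, the nucleolar chaperone nucleophosmin, came closest, with 1093, 791 and 953 FPKM at 5 weeks and 601, 297 and 454 at 25 weeks, a log2 fold change of -1.11 ± 0.30 and a limma adjusted p of 0.098. Eef2, the translocase of elongation, had 357, 365 and 366 FPKM at 5 weeks and 407, 262 and 321 at 25 weeks, and its log2 fold change was -0.16.

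Regulators of ribosome production and the p53 response showed no call by limma either. Of 20 tested mTORC1 and MYC regulators, none passed, with medians of -0.17, -0.16 and 0.02 for SAMP at 25 weeks against AKR, SAMP at 25 weeks against SAMP at 5 weeks and SAMP at 5 weeks against AKR, and 2, 1 and 1 had an unadjusted p under 0.05. Myc, which drives ribosomal genes, had 60.3, 36.1 and 81.4 FPKM in AKR, 39.3, 51.0 and 57.0 in SAMP at 5 weeks and 27.04, 37.1 and 52.7 in SAMP at 25 weeks, and the groups overlapped. Of 13 p53 response genes none was called, with medians of -0.36, 0.08 and -0.16 and 2, 2 and 1 at an unadjusted p under 0.05. For comparison with both lists, 1828, 1948 and 880 of all 11775 genes had such a p in limma's test, in the same order.

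Among 16 tested host genes of small nucleolar RNAs, which guide rRNA modification and sit in introns of TOP messages, 3 were called over the 3 comparisons together. Limma called 1 lower for SAMP at 25 weeks against AKR, where 2.94% of all genes were called. It called 1 lower for SAMP at 25 weeks against SAMP at 5 weeks, against 1.52% of all genes. For SAMP at 5 weeks against AKR it called 1 higher and 1 lower, against 0.552%. Gas5 had 108, 72.2 and 82.9 FPKM in AKR, 40.5, 24.9 and 29.1 in SAMP at 5 weeks and 23.8, 12.3 and 17.7 in SAMP at 25 weeks, without overlap between any pair of groups. It was lower in SAMP than in AKR at 25 weeks (-2.25 ± 0.27, limma adjusted p of 0.00069) and at 5 weeks (-1.45 ± 0.27, limma adjusted p of 0.039). Snhg5 rose in SAMP at 5 weeks against AKR (1.25 ± 0.23, limma adjusted p of 0.031). Snhg6 fell in SAMP at 25 weeks against SAMP at 5 weeks (-1.20 ± 0.24, limma adjusted p of 0.030), from 6.07, 6.12 and 7.14 FPKM to 2.30, 1.51 and 3.06. The medians of the list were -0.41, -0.74 and 0.21, close to those of the ribosomal protein genes.

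Mitochondrial counterparts leaned the same way. The 78 mitochondrial ribosomal protein genes had medians of -0.42, -0.52 and 0.11, and 78 tested respiratory chain subunits -0.43, -0.56 and 0.06, with none called by limma and 11, 25 and 2, then 12, 19 and 1, at an unadjusted p under 0.05. Of all 11775 genes, 1828 had such a p for SAMP at 25 weeks against AKR. The numbers were 1948 for SAMP at 25 weeks against SAMP at 5 weeks and 880 for SAMP at 5 weeks against AKR. Whether the cytosolic members differ from these lists was not tested. In SAMP at 25 weeks, replicate 2 was the lowest of the 9 libraries for the median of each of the lists of cytosolic and mitochondrial ribosomal proteins, respiratory chain subunits, elongation, initiation and assembly factors. In the same library the 10 most abundant rows took 54.4% of all FPKM, more than in any other.

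**Figure D5:**
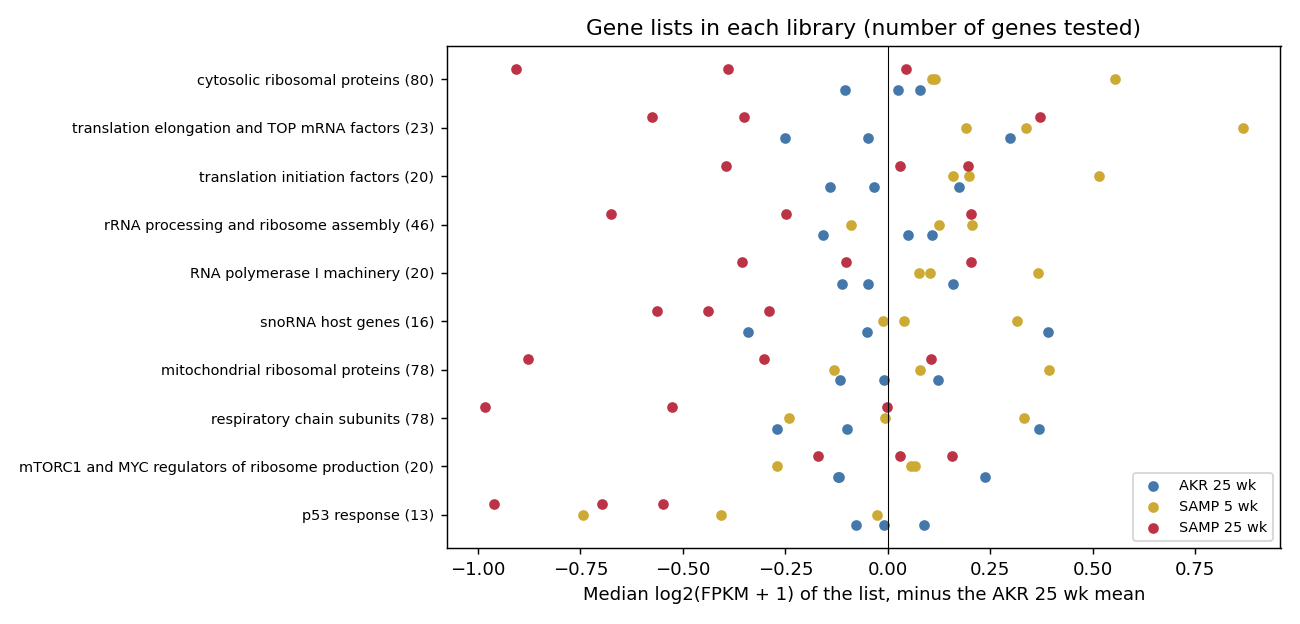
Median log2(FPKM + 1) of each gene list in each library, minus the AKR mean of that list, with the number of genes tested in parentheses and 1 point per library. For the cytosolic ribosomal proteins the points of SAMP at 25 weeks run from -0.91 to 0.05 and those of SAMP at 5 weeks from 0.11 to 0.56, and the lowest point of most lists is a SAMP library at 25 weeks.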

How the data were processed

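RNA-seq of laser-captured crypt base was compared over 9 libraries in 3 groups, assigned by the strain and age in the labels. The labels call the 3 samples of a group biological replicates, and replicate numbers follow accession order and pair nothing. The authors deposited FPKM values in 1 table, per the file headers. The genome was GRCm38 and the tools were DESeq2, HTSeq, STAR and Trimmomatic, per the submitters' processing notes. Which tool made the FPKM, and how reads that fit several genes were counted, is not given in the sources used here. Gene names came from RefSeq by gene number (18155 rows) or transcript accession (10), and 55 rows stayed unnamed.

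Tests were limma 3.58.1 in R 4.3.3 on log2(FPKM + 1), for the 11775 genes with a mean of at least 1 FPKM, with 1 fit of 3 group means (6 residual degrees of freedom), a variance trend and Benjamini-Hochberg adjustment over all genes at 0.05. Fold changes are on that log2(FPKM + 1) scale, with the pseudocount of 1 understating those of low genes, and carry the SE of the fit. FPKM errors are SD. Whole reads were not recovered: 77.5 to 81.3% of low values came within 0.2 of a whole number of reads, where random values would give 40%, so no count test was run and depths are estimates. Further steps used pandas 2.3.3, numpy 2.4.6 and matplotlib 3.10.9 under Python 3.11.15.

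The choice of members, gene lists, alternatives and named genes was made with earlier results of these data known. The rule took called members, the 5 highest and 5 lowest log2 fold changes of each comparison, a set of members with known roles, paralogs, the 3 highest and 3 lowest means, the 3 largest spreads and up to 4 genes of each related list. Some genes that the rule takes are not reported here. Npm1, Eef2 and Myc are given as known members of their lists. Start windows were RefSeq's, and coding sequences and shared windows came from GENCODE vM21 transcripts. Members with no start window were not searched. The alternatives covered the pseudocount, the filter, 6 rescalings, the libraries fitted and weighted, the threshold, each replicate left out and near copies summed.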

Additional observations from a re-analysis of the deposited data

How the results depend on the processing

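The members' median log2 fold change stayed negative for SAMP at 25 weeks against AKR and against SAMP at 5 weeks, and positive for SAMP at 5 weeks against AKR in all 24 alternatives. Some of these could not move a fold change, of a median or of a named gene. They were the threshold of 0.1, the fit of only the groups compared, and leaving out a library of the group not compared. Of 2661 values of named genes under the alternatives, 114 had the opposite sign to the reported one, 41 of them when scaled to the median member and 19 after quantile normalisation, and none of the 114 was called in either fit. One was Rpl37 for SAMP at 5 weeks against AKR, at -1.35 as reported and 0.67 with near copies summed. Quantile normalisation gave medians of -0.11 and -0.20 for SAMP at 25 weeks against AKR and SAMP at 5 weeks, and scaling to the median member, which removes the shared shift by construction, -0.048 and -0.045. Leaving out 1 replicate gave medians from -0.69 to -0.21, -0.94 to -0.48 and 0.08 to 0.37 in the 3 comparisons (SAMP at 25 weeks against AKR, against SAMP at 5 weeks, SAMP at 5 weeks against AKR), with 1, 0 to 12 and 0 to 1 members called and 186 to 492, 82 to 528 and 36 to 70 genes called in all.

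Of 346, 179 and 65 genes called, library weights made 2514, 2297 and 196, with 30, 56 and 1 members. A threshold of 0.1 gave 533 and 369 genes in the comparisons with SAMP at 25 weeks. Without AKR replicate 2 and SAMP 25 week replicate 3 together there were 158 genes for SAMP at 25 weeks and 40 for SAMP at 5 weeks against AKR. Between the SAMP ages, 99 genes were called with no filter, 300 after quantile normalisation, 287 with equal medians and 1580 when scaled to the median member. In that comparison 1 member, Rpl31, was called with equal medians, with either equal sum and at a threshold of 0.1. In these fits 287, 251, 221 and 369 genes were called in all, of 11775 to 11783 tested. For SAMP at 5 weeks against AKR, 1 member, Rpl37, was called after TPM, quantile, equal median, either equal sum and median member scaling. In these fits 70, 88, 79, 87, 86 and 64 genes were called in all, of 11775 to 12528 tested. Rpl37 was also called at a threshold of 0.1, with library weights and without SAMP 5 week replicate 1 or SAMP 25 week replicate 1 or 2. There 97, 196, 43, 69 and 70 of 11775 genes were called. Rpl37 stayed called for SAMP at 25 weeks against AKR in 23 of 24 alternatives, and with near copies summed 0 members were called. The 24 alternatives called 158 to 2514 genes in all in that comparison. The cause of these movements was not tested.

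FPKM carries no count, so counting error is unknown, and with 3 libraries a group the tests have a typical SE of 0.29 for a member. Members share libraries and sequence, so their values are not separate evidence. No paired analysis was possible because replicate numbers follow only accession order.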

Other observations

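Rps3a1, a 40S protein, had 908, 791 and 729 FPKM in AKR, 1214, 732 and 883 in SAMP at 5 weeks and 911, 384 and 548 in SAMP at 25 weeks. Rpl22l1, a paralog of Rpl22, had 119, 106 and 93.1 FPKM in AKR and 249, 118 and 154 in SAMP at 5 weeks, then 114, 68.5 and 78.8 in SAMP at 25 weeks. Rps27rt, a retrogene of Rps27, was listed at 0 in 4 of the 9 libraries and reached 87.4 FPKM in replicate 1 of SAMP at 5 weeks.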
